A study of Mus musculus with 3 samples.

Results

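Integrins are cell surface receptors made of 1 alpha and 1 beta chain, and 10 integrin genes of the deposited table are described here: the alpha subunits Itga1, Itga4, Itgae, Itgal, Itgav and Itgax and the beta subunits Itgb1, Itgb2, Itgb3 and Itgb7. They were taken from a list of gene names, and all 10 were found among the 25638 genes of the table. The study sequenced RNA of CD8+ T cells from the spleens of untreated mice labelled WT, in 3 groups: naive, central memory and effector memory cells. The sources used here do not give strain, age, the number of animals, how the cells were sorted or how memory arose. Each group has 1 library, so no difference has a replicate check and no test between groups was possible.

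An integrin reaches the cell surface as an alpha and beta pair, and the pair sets what the cell can hold on to. Itgal and Itgb2 encode LFA-1, which binds ICAM proteins on other cells. Itga4 pairs with Itgb1 to bind VCAM-1 and fibronectin, and with Itgb7 to bind the gut vessel protein MAdCAM-1. Itgae (CD103) with Itgb7 binds E-cadherin on epithelium, and Itga1 (CD49a) with Itgb1 binds collagen. Itgax is the CD11c chain, best known on dendritic cells, and pairs with Itgb2. Itgav pairs with Itgb1, Itgb3 and other beta chains to bind proteins with an RGD sequence, such as osteopontin and vitronectin.

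Depth was 26876909 counts in the naive library, 35846315 in that of central memory and 33087462 in that of effector memory. Levels are CPM, the counts of a gene per 1000000 counts of its TMM-scaled library, and 3 counts, the limit that a count of 0 allows, equal 0.108, 0.0837 and 0.0938 CPM. The 5 CD8 T cell markers were present in all 3 libraries. Cd8a, at 1868, 1063 and 408 CPM, and Cd8b1, at 1055, 540 and 276 CPM, fell at each step. Cd3e (395, 418 and 335 CPM), Cd3d (316, 421 and 295 CPM) and Cd3g (447, 570 and 572 CPM) did not. Of the 4 markers of CD4 and regulatory T cells, Zbtb7b stood at 1.33, 37.4 and 93.6 CPM. Cd4, Foxp3 and Cd40lg stayed below 5 CPM in every library. Cd44, an adhesion receptor of antigen-experienced cells, stood at 2.95, 45.8 and 113 CPM. The libraries also differed in other ways. The receptor segment Trbv12-1 took 7.13% of the Trbv counts of the naive library (1107 of 15526; Clopper-Pearson 95% interval 6.73% to 7.55%). Its share was 99.6% for central memory (99.57% to 99.72%) and 98.4% for effector memory (97.98% to 98.70%). Mki67, a marker of dividing cells, stood at 2.62, 301 and 1819 CPM. Receptor use, division and memory type cannot be told apart across these libraries.

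Ratios between libraries carry a 95% exact counting interval, which covers counting error only and not the spread between animals. A gene is called higher or lower here if its ratio is 2 or more in that direction, its interval leaves out 1 and its higher library reaches 5 CPM. All 10 integrin genes reached that level in every comparison. In the comparisons with naive, Itga1 and Itgax reached it only through the memory libraries, where they had to be the higher ones. Itgae was at 1.31 CPM in effector memory. In both comparisons with effector memory, Itgae reached 5 CPM only through the other library, so it could only be lower in effector memory. In bulk RNA, more cells with a transcript and more transcript per cell cannot be told apart.

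In central memory 5 of the 10 integrin genes were higher than in naive (Itga1, Itgax, Itgb1, Itgb3 and Itgav) and 1, Itgae, was lower. Of the 9737 genes tested in that comparison, 11.2% were higher and 5.12% lower. In effector memory the same 5 genes were higher than in naive, and Itga4 and Itgae were lower, beside 22.3% and 15.6% of 10087 genes. Between the memory libraries 0 of the 10 were higher in effector memory and 3, Itga4, Itgae and Itgax, were lower, beside 14.8% higher and 12.8% lower of 9975 genes. The 2 comparisons with naive share the naive library. The median log2 ratio of the 10 genes was 0.75 in central memory against naive, 1.10 in effector memory against naive and -0.34 between the memory libraries, where the medians of all genes tested were 0.14, 0.06 and -0.06.

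**Figure D1:**
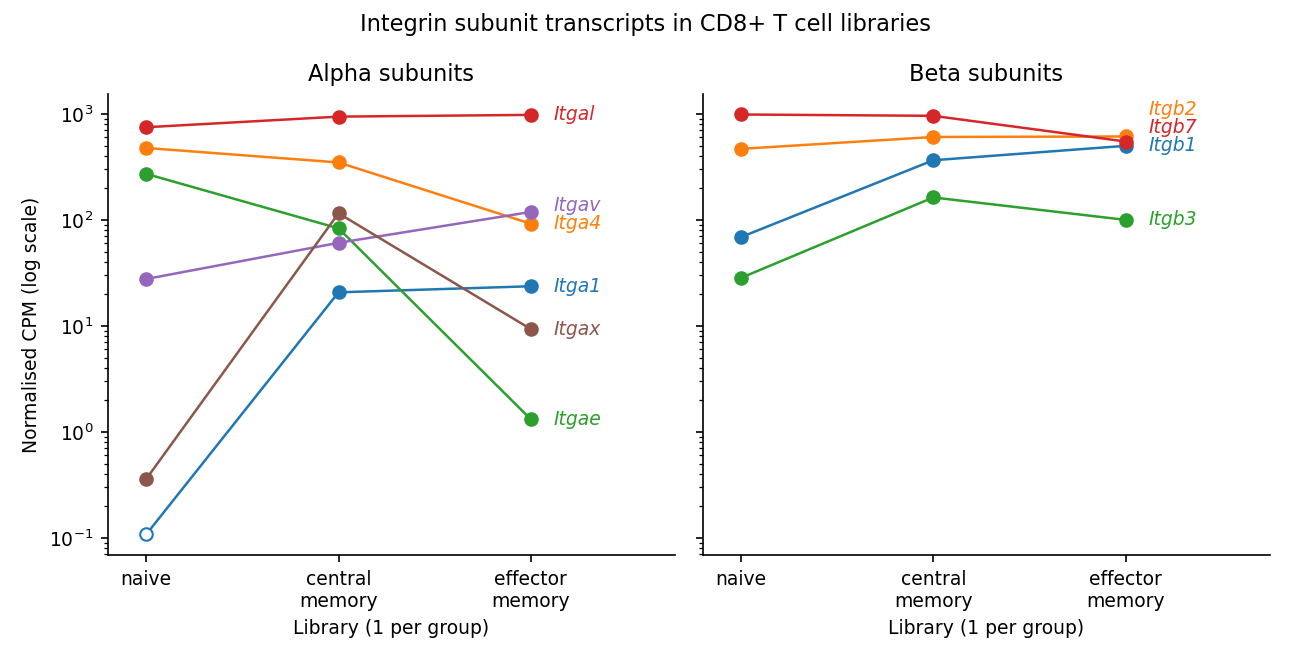
Normalised CPM (log scale) of the 6 alpha and 4 beta subunits in the 3 libraries; each point is 1 library, lines join the points of a gene, and the open point is a count of 0 drawn at 3 counts. Itgal and Itgb2 stay within a narrow band, Itgae falls from 272 to 1.31 CPM, and Itgax peaks in central memory at 115 CPM.

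RefSeq promoter windows on GRCm38.p6 were given for 6 of the 10 genes: Itga1, Itga4, Itgav, Itgax, Itgb1 and Itgb7. Of these, 4 are printed because their transcripts differ most between the libraries: Itga1, Itgax and Itgb1, higher in both memory libraries, and Itga4, lower in effector memory. Each run is the 250 bases before the RefSeq start, 5′ to 3′ on the strand of the gene. The windows are chr13:115101965-115102214 on the minus strand for Itga1, and on the plus strand chr7:128129300-128129549 for Itgax, chr8:128685404-128685653 for Itgb1 and chr2:79255176-79255425 for Itga4. Capitals mark exact matches to 3 short motifs on either strand: TGTGGT or TGCGGT (RUNX), AGGAAG (ETS) and GGGCGG (GC box).
Itga1: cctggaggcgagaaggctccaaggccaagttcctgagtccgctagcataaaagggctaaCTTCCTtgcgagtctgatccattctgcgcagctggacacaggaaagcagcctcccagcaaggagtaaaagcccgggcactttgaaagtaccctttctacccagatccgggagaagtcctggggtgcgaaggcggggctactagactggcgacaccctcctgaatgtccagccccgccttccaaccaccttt
Itgax: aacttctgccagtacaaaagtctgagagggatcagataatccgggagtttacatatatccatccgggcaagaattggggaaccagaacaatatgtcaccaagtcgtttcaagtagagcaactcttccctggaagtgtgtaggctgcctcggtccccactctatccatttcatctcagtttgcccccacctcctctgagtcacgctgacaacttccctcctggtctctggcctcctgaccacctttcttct
Itgb1: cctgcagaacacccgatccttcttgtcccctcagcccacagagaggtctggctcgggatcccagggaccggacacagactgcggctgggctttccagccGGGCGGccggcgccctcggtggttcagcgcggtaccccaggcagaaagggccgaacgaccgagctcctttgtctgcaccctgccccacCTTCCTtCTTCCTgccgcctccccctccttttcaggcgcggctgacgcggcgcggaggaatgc
Itga4: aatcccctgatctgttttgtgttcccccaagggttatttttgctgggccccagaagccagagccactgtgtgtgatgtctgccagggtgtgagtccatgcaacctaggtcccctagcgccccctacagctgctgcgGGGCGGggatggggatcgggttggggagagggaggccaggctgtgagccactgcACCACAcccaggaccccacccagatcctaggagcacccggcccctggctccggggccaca

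The RUNX letters were found in 1 of the 6 windows, that of Itga4, on the opposite strand from 60 to 55 bases before the start. Of 32851 RefSeq windows of this length, 18.6% hold them. The ETS letters were found in 4 windows (Itga1, Itgav, Itgb1 and Itgb7), and Itgb1 holds 2 matches side by side, from 63 to 51 bases before the start. Of all windows 29.5% hold that motif. The GC box lies in the windows of Itga4 and Itgb1, and in 32.7% of all. The Itgax window holds none of the 3 motifs and has the lowest GC content of the 6, at 50%, while that of Itgb1 has the highest, at 68.0%. These are matches of letters, and binding was not measured.

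The LFA-1 chains were the steadiest pair. Itgal (ENSMUSG00000030830.18, chromosome 7, 127296260 to 127335138, plus strand) stood at 748 CPM in the naive library, 942 CPM in central memory cells and 979 CPM in effector memory cells. Itgb2 (ENSMUSG00000000290.13, chromosome 10, 77530252 to 77565708, plus strand), the beta chain shared by all leukocyte CD11 integrins, stood at 468, 605 and 612 CPM. Both were slightly above naive in the memory libraries and neither was called in any comparison. The ratio to naive was 1.26 (interval 1.24 to 1.28) in central memory and 1.31 (1.29 to 1.33) in effector memory for Itgal. For Itgb2 it was 1.29 (1.27 to 1.32) and 1.31 (1.28 to 1.34).

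Itgal and Itgb2 also kept their proportion to each other. Per kilobase of exon, Itgal stood at 0.743 of Itgb2 in naive cells (interval 0.727 to 0.760). The proportion was 0.723 for central memory (0.711 to 0.736) and 0.743 for effector memory (0.729 to 0.756). How such a proportion changes between libraries depends on neither gene length nor scaling. From naive to effector memory the Itgal to Itgb2 proportion changed by a factor of 0.999 (interval 0.971 to 1.03), and from naive to central memory by 0.973 (0.947 to 1.001). Of the 8 alpha and beta pairs compared, it was the pair whose proportion changed least.

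Itgax was the second partner of Itgb2 and behaved otherwise. Itgax (ENSMUSG00000030789.9, chromosome 7, 128129547 to 128150657, plus strand) had 10 counts in the naive library, 4131 with central memory and 298 with effector memory, or 0.359, 115 and 9.32 CPM. Central memory was thus the high library and naive was close to the counting limit. Against naive, central memory was 321-fold higher (interval 174 to 669.6). The ratio of effector memory to naive was 25.9 (interval 13.9 to 54.6), and effector memory was 12.4-fold below central memory (11 to 13.97). Per kilobase, Itgal was 1522-fold above Itgax in naive cells (interval 828 to 3175). The gap was 5.97-fold in central memory (5.78 to 6.17) and 76.8-fold with effector memory (68.5 to 86.3).

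Dendritic cells and NK cells can also carry Itgax, so their markers are given beside it. Of 7 dendritic cell markers, 4 had no count in either memory library (Flt3, Clec9a, Siglech and Cd209a). In naive, Flt3 and Siglech had no count, and Clec9a and Cd209a had 2 each. The 7 markers summed to 10.6, 3.13 and 79.4 CPM in naive, central memory and effector memory. The effector memory sum was mostly H2-Ab1 (66.9 CPM) and Xcr1 (12.3 CPM). The 5 NK cell markers summed to 39.0, 133 and 93.1 CPM, with 1, 0 and 1 of them at 0 counts. Among them Ncr1 had counts in central memory only (12.2 CPM). Klrb1c stood at 0.216, 33.0 and 1.91 CPM and Tyrobp at 0.395, 5.02 and 0.813 CPM. Eomes, at 38.1, 74.4 and 79.9 CPM, and Fcer1g, at 0.288, 7.96 and 10.4 CPM, were highest in effector memory. The part of dendritic cells or NK cells in the Itgax level was not tested. The neighbouring CD11 genes Itgam and Itgad, also partners of Itgb2, stayed below 5 CPM: Itgam stood at 1.47, 3.77 and 1.19 CPM and Itgad at 0.539, 2.07 and 0.375 CPM. Both were highest in central memory.

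Both alpha partners of Itgb7 were lower in effector memory than in naive, while Itgb7 itself was not called. Itgb7 (ENSMUSG00000001281.10, chromosome 15, 102215995 to 102231944, minus strand) stood at 987 CPM in the naive library, 959 CPM in central memory cells and 549 CPM in effector memory cells. Naive and central memory were close (ratio 0.972, interval 0.956 to 0.987). Effector memory was 1.80-fold below naive (1.76 to 1.83), short of the 2-fold rule. Itgb7 was the most abundant of the 10 transcripts per kilobase in naive and central memory, at 356 and 346 CPM per kilobase. In effector memory it stood at 198 beside Itgb2 at 201, and the interval of their ratio held 1 (Itgb2 to Itgb7 1.01, interval 0.992 to 1.03).

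Itgae had the largest fall of the 10. Itgae (ENSMUSG00000005947.11, chromosome 11, 73090583 to 73147446, plus strand) had 7556 counts in the naive library, 2979 with central memory and 42 with effector memory, or 272, 83.2 and 1.31 CPM. Each step was downward. Central memory was 3.27-fold below naive (interval 3.13 to 3.41) and effector memory 63.3-fold below central memory (46.7 to 88.0). Effector memory was 207-fold below naive (153 to 287). On the log2 scale central memory lay 22.2% of the way from naive to effector memory. Per kilobase Itgae was 0.166 of Itgb7 in naive cells, 0.0524 with central memory and 0.00145 with effector memory (interval 0.00104 to 0.00196).

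Itga4 was lower in effector memory than in the other libraries. Itga4 (ENSMUSG00000027009.18, chromosome 2, 79255426 to 79333123, plus strand) stood at 477, 348 and 92.0 CPM in naive, central memory and effector memory. Naive and central memory differed by 1.37-fold (interval 1.34 to 1.40) and were not called apart. Effector memory was 5.19-fold below naive (4.98 to 5.40) and 3.78-fold below central memory (3.63 to 3.94). Exons of Itga4 share 1124 of 13978 bases with Cerkl on the other strand, which had 47, 143 and 78 counts. Exons of Itgav share 634 of 10744 bases with Gm13684 on the other strand. Those of Itga1 share 685 of 18599 with Gm49395 on the same strand. Neither Gm13684 nor Gm49395 is among the genes counted. Strandedness is not given, so reads in these stretches cannot be assigned with certainty. Between the alpha partners of Itgb7, Itga4 stood at 0.576 of Itgae per kilobase in naive cells, at 1.37 for central memory (interval 1.32 to 1.43) and at 23.0 for effector memory (16.9 to 31.9). Their order was therefore reversed between naive and both memory libraries. Together they amounted to 0.262, 0.124 and 0.0347 of the Itgb7 level per kilobase.

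**Figure D2:**
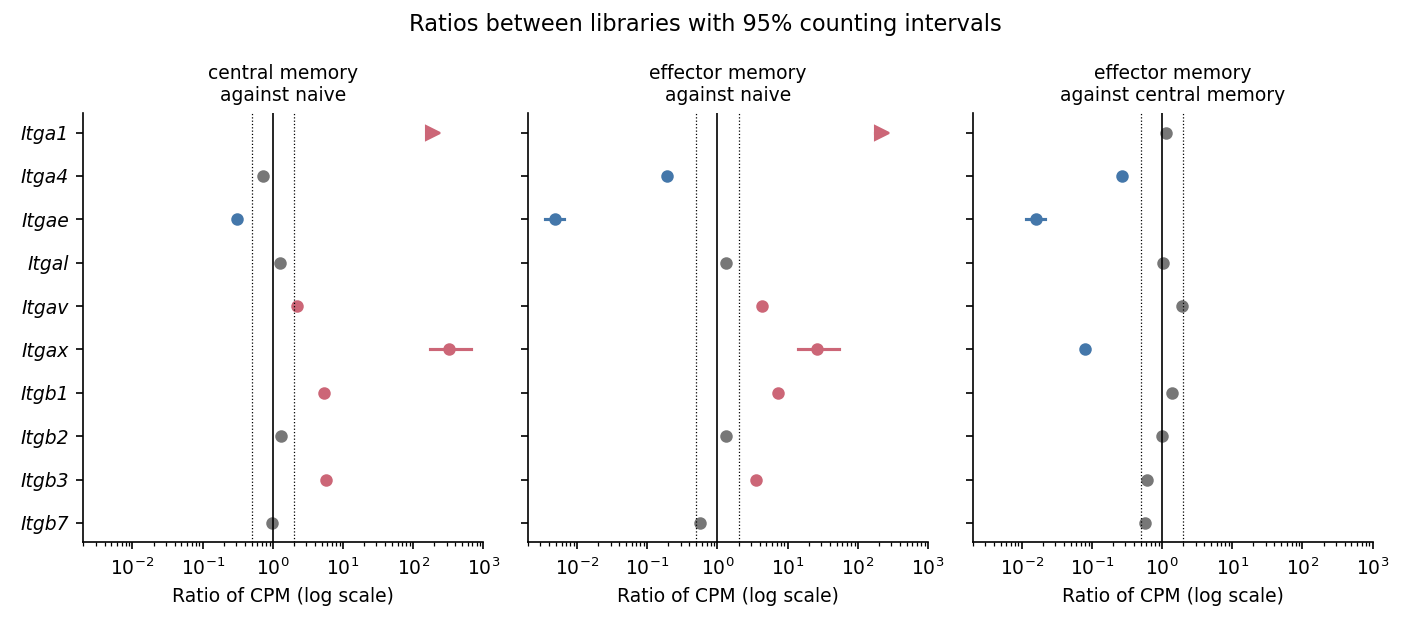
Ratio of CPM (log scale) for each integrin gene in the 3 comparisons, with 95% counting intervals. Red is called higher, blue lower and grey neither, and dotted lines mark a ratio of 2 in each direction. Triangles are ratios with a naive count of 0 set to 3 counts, and their lines reach the lower end of the interval. Itga1, Itgax, Itgb1, Itgb3 and Itgav lie to the right in both comparisons with naive, and only Itga4, Itgae and Itgax are called between the memory libraries.

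Itgb1 was higher in both memory libraries than in naive. Itgb1 (ENSMUSG00000025809.15, chromosome 8, 128685654 to 128733200, plus strand), the beta chain of the collagen, laminin and fibronectin receptors, stood at 68.8, 365 and 499.7 CPM. The 2 memory libraries stood far above naive, 5.31-fold (interval 5.06 to 5.57) in central memory and 7.27-fold (6.93 to 7.62) in effector memory. The memory libraries differed by 1.37-fold (1.34 to 1.40) and were not called apart. On the log2 scale central memory had covered 84.2% of the distance from naive to effector memory.

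The balance of Itgb7 to Itgb1 shifted with it. Per kilobase, Itgb7 was 21.1-fold above Itgb1 in naive cells (interval 20.2 to 22.2), 3.87-fold with central memory (3.79 to 3.95) and 1.62-fold with effector memory (1.58 to 1.65). This is a 13.1-fold change (12.4 to 13.8) in the Itgb1 to Itgb7 proportion from naive to effector memory, independent of scaling. Both beta chains can pair with Itga4. The Itga4 level was 2.02 times Itgb1 per kilobase in naive cells (1.93 to 2.13), 0.278 with central memory and 0.0537 with effector memory. Per kilobase of all exons, the alpha transcript was below its beta partner in 7 of the 8 pairs in naive, with Itga4 over Itgb1 as the exception, and in 8 of 8 in each memory library. These counts depend on the gene length used. A pair was counted only if the upper end of its interval lay under 1. With the longest transcript, where Itgav stood at 0.974 of Itgb3, the count in effector memory was 7. With the median coding transcript it was 5 in naive and 7 in each memory library, and Itgav then stood at 8.20, 3.14 and 9.98 times Itgb3 and, in naive, at 1.32 times Itgb1.

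Itga1 appeared with Itgb1 in both memory libraries. Itga1 (ENSMUSG00000042284.10, chromosome 13, 114953096 to 115101964, minus strand) had 0 counts in the naive library, 742 with central memory and 756 with effector memory, or 20.7 and 23.6 CPM in the memory libraries. Against the 3 counts that the naive library allows, it was 192-fold higher in central memory and 219-fold higher in effector memory. The lower ends of the counting intervals were 156 and 178. The memory libraries were nearly level (ratio 1.14, interval 1.03 to 1.26). Itga1 remained a minor partner: per kilobase Itgb1 exceeded it 80.3-fold in central memory (74.6 to 86.6) and 96.3-fold in effector memory (89.6 to 104).

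The third alpha chain that was higher in memory was Itgav (ENSMUSG00000027087.11, chromosome 2, 83724397 to 83806916, plus strand). Its levels were 27.7, 60.7 and 119 CPM. Each library was above the one before it. Central memory was 2.20-fold above naive (interval 2.02 to 2.39) and effector memory 4.29-fold (3.97 to 4.64). Central memory lay 54.0% of the way on the log2 scale. Effector memory was 1.955-fold above central memory (1.85 to 2.06), just under the 2-fold rule.

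Itgb3, the beta chain of the vitronectin receptor, did not follow Itgav step by step. Itgb3 (ENSMUSG00000020689.4, chromosome 11, 104608000 to 104670476, plus strand) stood at 28.4, 163 and 99.998 CPM, highest in central memory. Central memory was 5.74-fold above naive (interval 5.33 to 6.19) and effector memory 3.53-fold (3.26 to 3.82). Effector memory was 1.63-fold below central memory (1.56 to 1.70). The Itgav to Itgb3 proportion per kilobase was 0.536 (naive), 0.205 (central memory) and 0.652 (effector memory). Itgb3 is also a platelet integrin chain, with Itga2b as its partner. The 6 platelet markers summed to 2.59, 9.10 and 1.19 CPM, and Pf4, Ppbp, Gp9, Gp1bb and Gp6 had no count in either memory library. The whole sum in the memory libraries was that of Gp1ba, and Itga2b stood at 3.85, 2.09 and 2.38 CPM. The part of platelets in the Itgb3 level was not tested.

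**Figure D3:**
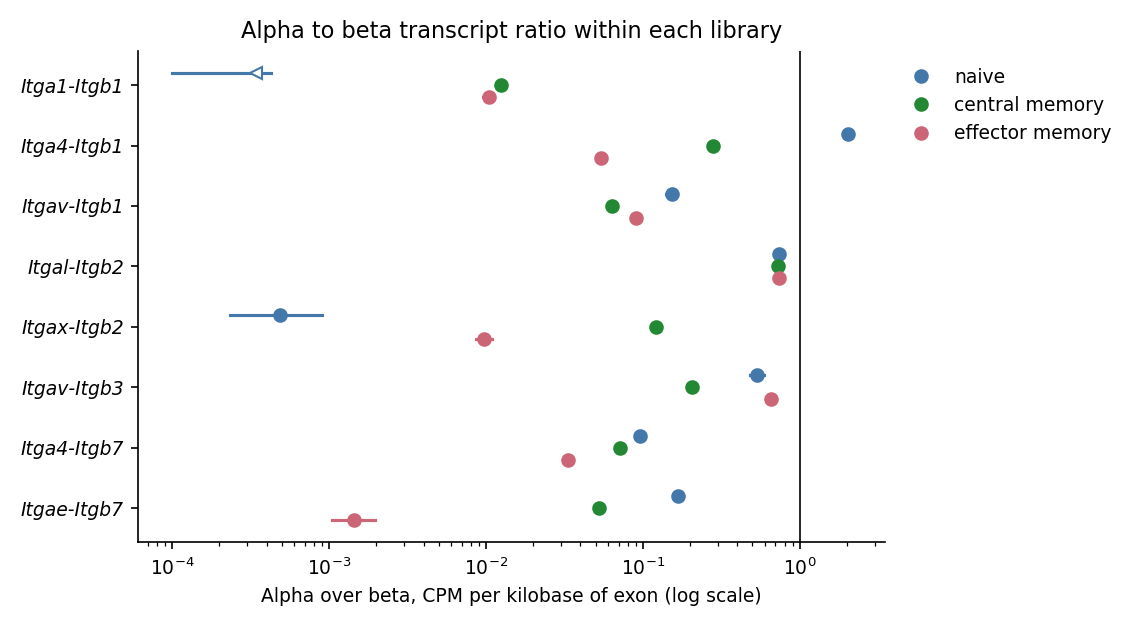
Alpha over beta transcript level per kilobase of exon (log scale) for 8 known pairs in each library, with 95% counting intervals. The open triangle is a ratio with a count of 0 set to 3 counts, and the line at 1 marks equal levels. Itgal-Itgb2 points coincide between 0.723 and 0.743, whereas Itgae-Itgb7 spreads from 0.166 to 0.00145.

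Ordered by level per kilobase, naive cells had Itgb7, Itgb2 and Itgal on top (356, 153 and 114 CPM per kilobase), then Itgae (59.3), Itga4 (34.1), Itgb1 (16.9), Itgb3 (4.81), Itgav (2.58) and Itgax (0.0748). Itga1 was at 0. In central memory Itgb1 took the fourth place at 89.5 CPM per kilobase. It was followed by Itgb3 (27.6), Itga4 (24.9), Itgax (24.0), Itgae (18.2), Itgav (5.65) and Itga1 (1.11). In effector memory the first 4 were Itgb2, Itgb7, Itgal and Itgb1 (201, 198, 149 and 122 CPM per kilobase), and Itgae was last at 0.287. The 12 alpha partners of Itgb1 summed to 52.3, 43.2 and 30.8 CPM per kilobase, so their sum was 3.10, 0.482 and 0.251 times the Itgb1 level. Itga4 made up 65.2% of that sum in naive and 57.7% in central memory, and Itgav was the largest in effector memory at 35.9%. Itga4 also pairs with Itgb7, and Itgav with other beta chains, but their whole levels were counted here. These shares also depend on the gene length used: the median coding transcript has 688 bases for Itgav and 9767 for Itga4.

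**Figure D4:**
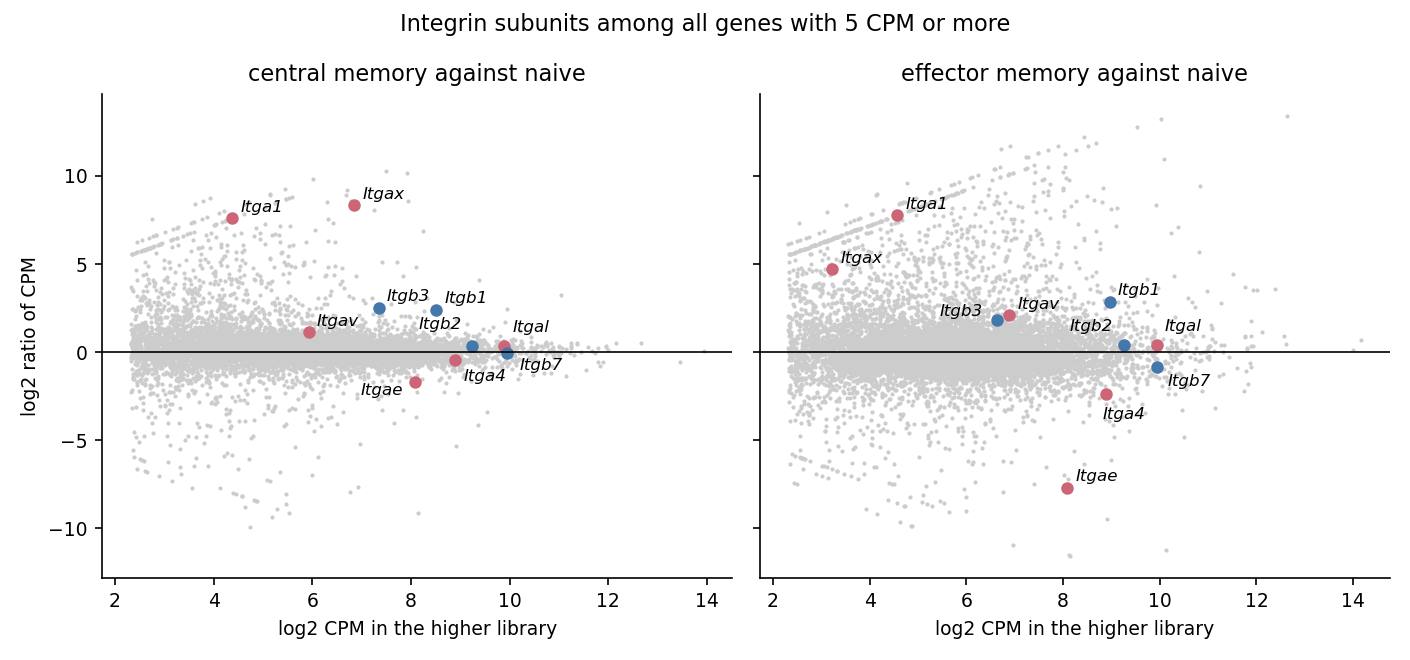
log2 ratio of CPM against log2 CPM in the higher library for genes with 5 CPM or more (grey), with the alpha (red) and beta (blue) integrin genes named, for central memory (left) and effector memory (right) against naive; genes at 0 in 1 library are drawn at 3 counts. Itga1 and Itgax lie far above 0 in both panels, and Itgae lies at -7.69 in the right panel.

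For each integrin gene the genes nearest in pattern were taken by distance between their log2 ratios to naive over the 3 libraries, among 7974 genes with 20 CPM or more. With 3 libraries such likeness is loose, and for Itgal 1806 genes lay within 0.5 log2 units. For Itgax, Itgae and Itga1 only 1 gene each did. The gene nearest to Itgax was the chemokine Ccl5 (0.647, 244 and 19.3 CPM, distance 0.31), followed by Chst2 and Samd3. Nearest to Itgae was Vipr1, a receptor for vasoactive intestinal peptide (108, 43.2 and 0.438 CPM, distance 0.46). Nearest to Itga1 was the granzyme gene Gzmg (0, 20.04 and 31.3 CPM, distance 0.41). Counts under 3 were set to 3 for these distances. Itga1 and Gzmg both had 0 counts in naive, so only their levels in the memory libraries set their distance. Itgb1 had 19 genes within 0.5, of which the nearest was Bcl2l1, an inhibitor of cell death (7.98, 44.4 and 52.8 CPM, distance 0.15). Itgb3 had 14, led by Akap1 (6.07, 38.0 and 20.5 CPM). Among the 3 genes nearest to Itga4 was Cyth1, a cytohesin that binds the Itgb2 tail (343, 268 and 66.0 CPM).

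Of the 17 other integrin subunits, 5 reached 5 CPM in central memory or naive, with 2 higher and 2 lower in central memory, beside 11.2% and 5.12% of all genes tested. In effector memory against naive 4 of 7 were higher and 2 lower, beside 22.3% and 15.6%. Between the memory libraries 3 of 6 (Itgb5, Itga7 and Itga5) were higher in effector memory and 1, Itga6, was lower, beside 14.8% and 12.8%. Except for Itga6, each called subunit reached 5 CPM in only 1 library of its comparison, where it had to be the higher one. That library was naive for Itga10 and, in central memory against naive, for Itga5. It was the memory library for Itga2 and Itga3, and effector memory for Itgb5, Itga7 and, between the memory libraries, Itga5. Itga6, a laminin receptor chain, stood at 95.3, 66.5 and 25.2 CPM, 3.78-fold lower in effector memory than in naive (interval 3.49 to 4.09). Itga7, another laminin receptor chain, stood at 0.431, 1.03 and 21.1 CPM, 48.9-fold higher in effector memory than in naive (27.8 to 95.1). Itgb5, a further partner of Itgav, had 0, 8 and 230 counts. It was 66.7-fold higher in effector memory than the naive limit of 3 counts, and the lower end of the interval was 53.8. Itga3, at 3.63, 9.38 and 14.5 CPM, was higher in both memory libraries, 2.58-fold (2.06 to 3.26) and 3.997-fold (3.22 to 5.01). Itga5, the fibronectin receptor chain, was lowest in central memory, at 10.3, 3.63 and 10.6 CPM.

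Genes that switch integrins on and tie them to actin were counted by the same rule. Of 32 such genes 26 reached 5 CPM in each comparison with naive. In central memory 1 was higher and 1 lower (median log2 ratio -0.08), beside 11.2% higher and 5.12% lower of all genes tested. In effector memory 1 was higher and 7 lower (median -0.41), beside 22.3% and 15.6%. Vcl, the gene higher in both comparisons with naive, reached 5 CPM only through the memory libraries. Ptk2, lower in both, reached it only through naive. The direction of these genes was thus set by that limit. Between the memory libraries 0 of 25 were higher in effector memory and 5 were lower, with a median of -0.27, beside 14.8% and 12.8%. Talin and kindlin bind beta tails directly: Tln1 stood at 1149, 1380 and 758 CPM and Fermt3, the leukocyte kindlin, at 294, 465 and 437 CPM, with no call for either. In effector memory Rasgrp2, the activator of the small GTPase Rap1, and Rassf5, a Rap1 effector, were 2.35-fold and 2.40-fold below naive. Stk4, a kinase that partners Rassf5, and the adaptor Fyb were 2.70-fold and 3.43-fold below naive. Rap1 itself was not called, with Rap1a at 97.3, 86.3 and 164 CPM and Rap1b at 471, 284 and 369 CPM.

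Among the called genes of that list, the largest differences from naive were those of Ptk2, Actn1, Vcl and Cyth1. Actn1, which crosslinks actin, stood at 466, 409 and 33.1 CPM, 14.1-fold lower in effector memory than in naive (interval 13.2 to 15.0). Its relative Actn4 was not called. Ptk2, the focal adhesion kinase, stood at 10.7, 0.335 and 0.219 CPM, 32.1-fold lower in central memory (18.1 to 62.8) and 49.1-fold lower in effector memory (23.5 to 123). Vcl, which encodes vinculin, was the 1 gene higher, at 0.970, 5.19 and 9.32 CPM. Cyth1 was 5.20-fold lower in effector memory than in naive (4.96 to 5.45).

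**Figure D5:**
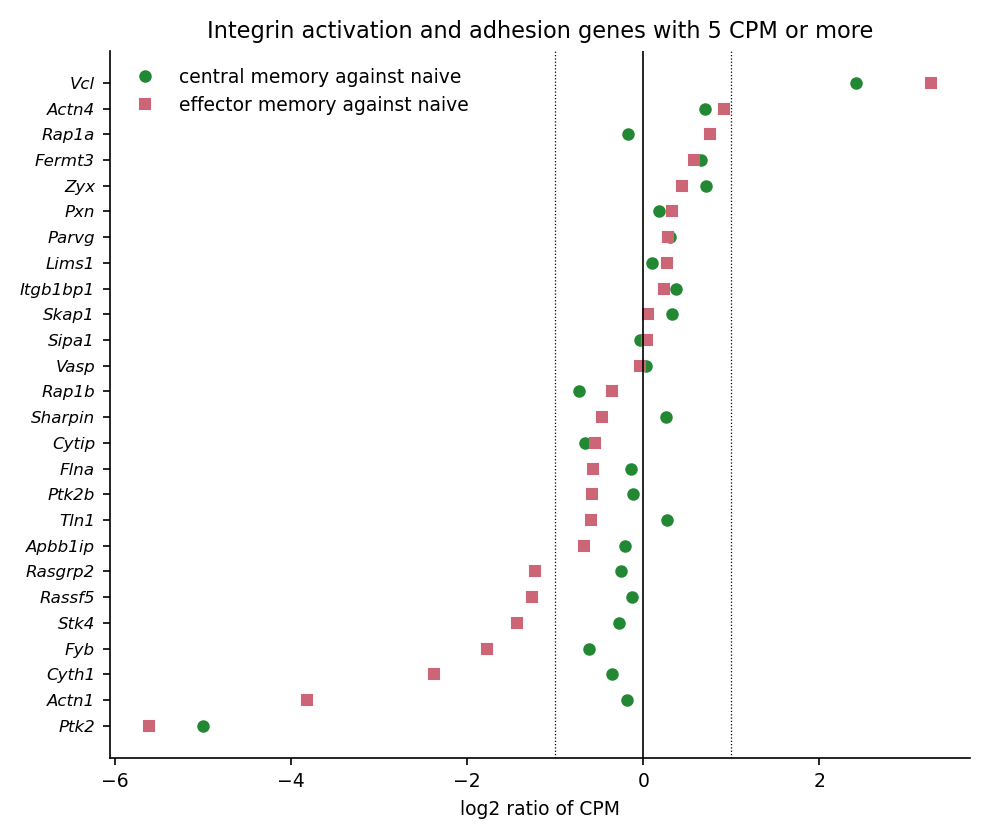
log2 ratio to naive of the 26 integrin activation and adhesion genes with 5 CPM or more, in central memory (circles) and effector memory (squares); dotted lines mark a 2-fold difference. Ptk2 is low in both memory libraries, Actn1 in effector memory, and Vcl is the gene past the line on the right.

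The cells also carried transcripts of integrin ligands. Of 27 ligand genes 7 reached 5 CPM in each comparison with naive. In both, Spp1, Lamc1, Cdh1 and Mfge8 were higher, beside 11.2% of all genes tested in central memory and 22.3% in effector memory. Of these, Spp1, Lamc1 and Cdh1 reached 5 CPM only through the memory libraries, where they had to be the higher ones. Spp1, which encodes osteopontin, a ligand of Itgav and Itga4 integrins, had 0 counts in naive and stood at 44.5 and 125 CPM in the memory libraries. It was 2.82-fold higher in effector memory than in central memory (interval 2.66 to 2.99). Cdh1, which encodes E-cadherin, the ligand of the Itgae and Itgb7 pair, stood at 3.16, 19.5 and 23.4 CPM, opposite in direction to Itgae. The laminin chain gene Lamc1 stood at 0.539, 40.8 and 65.6 CPM, and Mfge8, an RGD protein, at 14.3, 36.3 and 36.9 CPM. Icam2, a ligand of LFA-1, was 4.28-fold lower in effector memory than in naive (3.85 to 4.78). It was the 1 gene of 7 called lower there, beside 15.6% of all genes tested. In central memory against naive 0 of 7 were lower, beside 5.12%. Between the memory libraries 1 of 7, Spp1, was higher in effector memory and 1, Icam2, was lower, beside 14.8% and 12.8%. Icam1, at 77.8, 67.0 and 42.8 CPM, was not called. Vcam1 had 4, 0 and 0 counts, and Madcam1 had 0 in all 3 libraries.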

How the data were processed

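RNA-seq read counts of 3 libraries, 1 per group, were used; the column names TN, TCM and TEM were read as abbreviations of the sample titles. The authors deposited whole-number counts per gene symbol. Per the submitters' processing notes, HISAT2 2.0.5 and featureCounts 1.5.0-p3 were used, with CASAVA, on mm10. No source used here gives the annotation, the strand setting or how multi-mapping reads were counted. Effective library sizes came from TMM factors (1.04, 0.999 and 0.967; edgeR 4.0.16, R 4.3.3). Ratios have 95% Clopper-Pearson intervals conditional on the summed count, and changes of a proportion between libraries have log-scale Poisson intervals. A count of 0 was set to 3 counts in ratios. The calling rule was checked on simulated counts that held counting error only, so that check does not cover the spread between animals. Levels per kilobase used all exons of a gene in GENCODE M21 (GRCm38), where 98.7% of the symbols were found.

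The integrin genes, the lists of other subunits, machinery, ligands and cell markers, and the rules were chosen with earlier results of these data known. Named beside the 10 genes were up to 4 called genes per list and comparison with the largest ratios, and the 3 genes nearest in pattern; some are not given. Uncalled genes named, Itga2b, Itgam, Itgad, Tln1, Fermt3, Rap1a, Rap1b, Actn4, Icam1, Vcam1 and Madcam1, and the called genes Rasgrp2, Rassf5, Stk4 and Fyb against naive were picked after their values were seen, as were the promoter motifs. Protein sequences were not analysed here. Alternatives were scaling by upper quartile, by DESeq2 1.42.0 or by total counts, other minimum levels and ratios, a pseudocount of 1 CPM and 2 other gene lengths. Scripts ran in Python 3.11.15 with SciPy 1.17.1, NumPy 2.4.6 and pandas 2.3.3.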

Additional observations from a re-analysis of the deposited data

How the results depend on the processing

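No paired analysis was possible because each group has 1 library, and no library could be left out. With the other 3 scalings the calls of the 10 integrin genes were those reported, except that DESeq2 size factors called 1 gene, Itgav, higher in effector memory than in central memory. Upper quartile and DESeq2 scaling shifted all log2 ratios of central memory to naive by -0.12 and -0.11, which left the order of genes as it was; total counts put Itgb2 at 0.978 in effector memory against central memory, where TMM gave 1.01. At a minimum of 20 CPM Itgax was no longer called in effector memory against naive. With a ratio of 1.5, effector memory against central memory had 1 gene higher (Itgav) and 5 lower (Itgb3 and Itgb7 added), and Itgb7 was also lower in effector memory against naive. With a ratio of 4, 0 integrin genes were lower in central memory than in naive; Itgav there, Itgb3 in effector memory against naive and Itga4 between the memory libraries were no longer called either. Over all genes, calls in central memory against naive numbered 2501 at a minimum of 1 CPM, 830 at 20 CPM, 3194 with a ratio of 1.5 and 702 with a ratio of 4. In effector memory against naive they numbered 5874 and 1657, and between the memory libraries 4924 and 924, with ratios of 1.5 and 4. A pseudocount of 1 CPM lowered the Itga1 ratios to naive to 21.7 and 24.6 and those of Itgax to 85.6 and 7.59. Levels per kilobase depend on the transcripts used: with the median coding transcript, which includes partial models, Itgal was 0.222 of Itgb2 in naive. The depth leaves Itga1 and Itgax in naive known only as at or near the counting limit.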
